A study of Mus musculus with 36 samples.

Results

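Stromal lineage genes were followed in RNA-seq of cultured mouse nephron progenitor cells (NPCs), a population from which stroma had been depleted. The genes are 9, chosen by name from the 30125 genes in the 3 tables of normalized counts: the transcription factors *Foxd1*, *Tcf21*, *Meis1* and *Meis2*, the receptors *Pdgfra* and *Pdgfrb*, and the fibrillar collagen genes *Col1a1*, *Col1a2* and *Col3a1*. All 9 had a row in each table. The cells came from kidneys at embryonic day 16.5, by magnetic depletion of those carrying CD105, CD140a, Ter119 or CD326, and were cultured in nephron progenitor expansion medium. CD140a is the protein product of *Pdgfra*, so the depletion was aimed at cells making one of the 9 products. The 36 libraries came from 3 experiments in 15 groups, with the embryos of a preparation pooled and their sex not distinguished.

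In the first experiment wild-type NPCs (Swiss Webster or C57BL/6), not transfected, were cultured with no CHIR (0 µM), low CHIR (1.25 µM) or high CHIR (5 µM), with 3 libraries each. CHIR99021 inhibits the kinase GSK3β and thereby stabilises β-catenin, the product of *Ctnnb1*. In the second, *Ctnnb1* was removed at low and at high CHIR in 2 ways, with 2 libraries in each of 8 groups. NPCs homozygous for a conditional *Ctnnb1* allele (B-catenin_c_c) received Cre mRNA or no Cre, and NPCs from Cas9-eGFP mice received a sgRNA against *Ctnnb1* or against GFP. In the third, Cas9-eGFP NPCs received sgRNAs against the 4 Tcf/Lef genes *Tcf7*, *Tcf7l1*, *Tcf7l2* and *Lef1* (quadruple knockout, QKO) or against GFP, at low and high CHIR. Each group of the third held 3 libraries except QKO at low CHIR with 2, and its knockout period was longer than in the second. Cells of the second and the third experiments were sorted for mCherry from a co-transfected mRNA, so sorted cells can include unedited ones. Whether libraries of a group came from separate preparations is not given in the labels, and p-values measure the spread between these libraries only.

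In the developing kidney *Foxd1* marks the stromal progenitors that surround the nephron progenitors and give rise to interstitial fibroblasts, pericytes and mesangial cells. *Tcf21*, *Meis1* and *Meis2* are also active in stroma, and *Tcf21* and *Meis2* are found in some nephron lineage cells as well, so the 9 genes are not equally specific. PDGF receptors are typical of fibroblasts and mural cells, and *Col1a1*, *Col1a2* and *Col3a1* encode the chains of the collagens that fibroblasts secrete.

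Depth on genes ranged from 13651129 to 76071568 reads in the wild-type table, from 14537850 to 27838106 in the *Ctnnb1* table and from 13089780 to 20152719 in the Tcf/Lef table. Values are the authors' normalized counts, in which 1 size factor per library scales the reads. The 3 tables were normalized separately, so tests were made only within a table. Differences are log2 fold changes with their standard error (SE) from a limma fit of log2(normalized count + 1), a scale that understates changes of low genes. A gene was called when its adjusted p (Benjamini-Hochberg over all tested genes) was under 0.05 and its log2 fold change at least 0.5 in size. Tests covered genes whose mean over a table's libraries reached 10 normalized counts. As a check of the labels, *Ctnnb1* sgRNA lowered *Ctnnb1* to 1652 and 1040 normalized counts against 2521 and 3397 in the GFP sgRNA controls at low CHIR, and to 1630 and 1270 against 2632 and 2701 at high CHIR. After Cre at high CHIR, *Ctnnb1* stood at 2254 and 2583 against 2423 and 2207, values that overlap, and at low CHIR at 3085 and 2451 against 3880 and 3097, lower without overlap. Reads from outside the deleted part count too and this does not check the deletion. In QKO at high CHIR, *Lef1* stood at 255, 441 and 513 against 1504, 2743 and 1144 in the controls and *Tcf7* at 110, 180 and 127 against 534, 535 and 268, while *Tcf7l1* stood at 602, 539 and 736 against 612, 486 and 591 and *Tcf7l2* at 999, 1616 and 1481 against 1263, 2233 and 1750. At low CHIR *Tcf7l1* stood at 827 and 1286 in QKO against 2225, 1774 and 1736 and *Tcf7* at 66 and 98 against 220, 220 and 141, both without overlap, while the values of *Lef1* and *Tcf7l2* overlapped. Small indels need not lower a count.

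In GRCm38 the transcription factor genes lie on separate chromosomes: *Foxd1* (ENSMUSG00000078302) at chr13:98354242-98359305, *Tcf21* (ENSMUSG00000045680) at chr10:22817281-22820174, *Meis1* (ENSMUSG00000020160) at chr11:18879817-19018985 and *Meis2* (ENSMUSG00000027210) at chr2:115863064-116065839. *Pdgfra* (ENSMUSG00000029231) lies at chr5:75152292-75198215, and *Pdgfrb* (ENSMUSG00000024620) on another chromosome. The collagen genes are *Col1a1* (ENSMUSG00000001506) at chr11:94936224-94953042, *Col1a2* (ENSMUSG00000029661) at chr6:4504814-4541544 and *Col3a1* (ENSMUSG00000026043) at chr1:45311538-45349706. Because the experiments change the activity of β-catenin and Tcf/Lef factors, the sequence upstream of the start was searched on both strands for the Tcf/Lef motif CTTTGAT and for its core CTTTG, which the longer motif contains. RefSeq windows of GRCm38.p6, 250 to 51 bases before the start, were at hand for 7 of the 9 genes. CTTTGAT occurred in 0 of the 7 and in 2.64% of 32851 such windows, and the core occurred in the windows of *Tcf21*, *Pdgfra*, *Meis1*, *Meis2* and *Col3a1* and in 42.3% of all windows. The windows of *Tcf21*, which was called for high against low CHIR in all 3 experiments, and of *Col3a1*, the collagen gene whose levels spread most within groups of the Tcf/Lef experiment, are shown with the core in capitals (CAAAG is the core read on the other strand). *Tcf21* is at chr10:22820194-22820393, minus strand, and *Col3a1* at chr1:45311288-45311487, plus strand, and a match of letters is not a site shown to be bound.
Tcf21: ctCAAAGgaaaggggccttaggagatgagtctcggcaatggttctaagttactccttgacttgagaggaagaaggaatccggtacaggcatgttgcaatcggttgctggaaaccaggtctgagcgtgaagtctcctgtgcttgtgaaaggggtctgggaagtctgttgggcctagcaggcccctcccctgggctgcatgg
Col3a1: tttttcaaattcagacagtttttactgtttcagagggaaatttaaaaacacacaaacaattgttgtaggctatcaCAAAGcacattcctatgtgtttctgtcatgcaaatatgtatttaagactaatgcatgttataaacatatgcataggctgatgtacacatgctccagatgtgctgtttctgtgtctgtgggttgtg

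Reads of the 9 genes were present in every library, but their level differed widely between libraries of the same group. Per kilobase of exon, in low CHIR wild-type NPCs, *Tcf21* stood at 3486 ± 280 normalized counts (SD, n = 3), *Col1a1* at 1387 ± 310, *Col3a1* at 341 ± 101, *Col1a2* at 134 ± 45.4, *Meis1* at 123 ± 18.2 and *Meis2* at 110.5 ± 6.06. In the same libraries *Pdgfrb* stood at 71.4 ± 13.9, *Pdgfra* at 18.6 ± 8.01 and *Foxd1* at 6.91 ± 1.97 per kilobase. *Col1a2*, *Meis1* and *Meis2* did not differ beyond their spread, and *Foxd1*, the defining gene of stromal progenitors, was the lowest of the 9. In the GFP sgRNA controls of the Tcf/Lef experiment at low CHIR the order began with *Tcf21* (1249 ± 161 per kilobase) and *Col1a1* (268 ± 327), where the SD of *Col1a1* exceeded its mean, and ended with *Pdgfra* (10.2 ± 12.0) and *Foxd1* (1.16 ± 0.89). The lowest value of *Foxd1* in any library was 0.964 normalized counts, in QKO replicate 3 at high CHIR.

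As 1 partial measure of each library's stromal content, the reads of the 3 collagen genes were summed in RPM. This is the usual depth-scaled read unit, taken here over the reads on genes. In wild-type NPCs the sum was 1473, 308 and 771 with no CHIR, 844, 744.5 and 508 with low CHIR and 573, 170.1 and 273 with high CHIR. Across the 16 libraries of the *Ctnnb1* experiment it ran from 156 to 1241, and across the 11 of the Tcf/Lef experiment from 9.24 to 853. The GFP sgRNA controls of the Tcf/Lef experiment held 510.5, 134 and 13.2 RPM at low CHIR and 185, 32.9 and 9.24 at high CHIR. The QKO libraries held 853 and 44.8 at low CHIR (replicates 1 and 3) and 407, 120.3 and 27.1 at high CHIR. Thus the collagen sum spanned 92.3-fold in that experiment, against 8.66-fold in the wild-type and 7.94-fold in the *Ctnnb1* table. The sum of *Tcf21*, *Meis1* and *Meis2* spanned 4.15-fold in the Tcf/Lef table, from 100.9 to 418 RPM. The sum of the mural cell markers spanned 9.81-fold there, and *Des*, a member of that list, fell at high CHIR in the controls (given below). The sum of 14 other stromal progenitor and fibroblast markers spanned 7.97-fold. In the Tcf/Lef controls these 14 summed to 128 to 221 RPM at low and 413 to 678 at high CHIR, while the collagen sum was lower at high CHIR. Without Cre they summed to 235 to 388 at low and 554 to 640 at high CHIR. A sum follows the most abundant genes of its list, and *Aldh1a2*, a member of the 14, rose at high CHIR in both of these controls (given below). These rises therefore do not stand for the list as a whole. In wild-type NPCs the sum of the 14 went down, from 340 to 537 with low to 210 to 452 with high CHIR, with overlap. In bulk RNA, fewer cells of a type and less RNA per cell cannot be told apart, and no library of pure stroma was sequenced that would turn these sums into shares of cells.

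**Figure D1:**
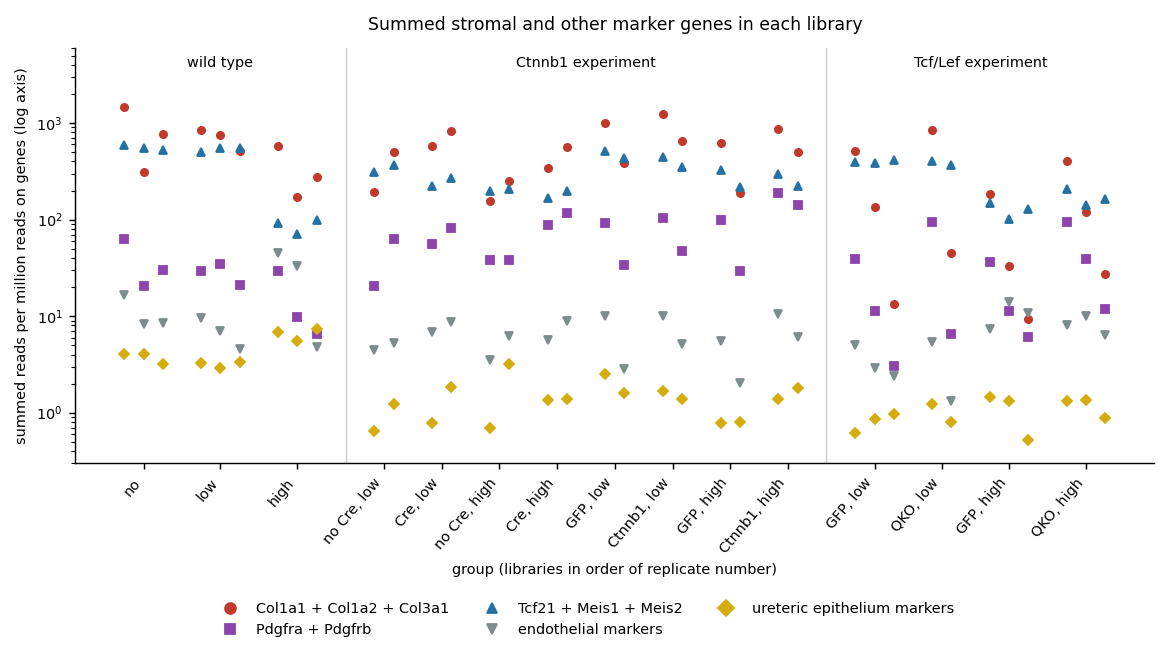
Summed RPM over the reads on genes (log axis) of the 3 collagen genes, the PDGF receptors, the 3 transcription factors *Tcf21*, *Meis1* and *Meis2*, and the endothelial and ureteric marker lists, 1 point per list and library (36 libraries, in order of replicate number within a group). The collagen sum runs from 9.24 to 853 in the Tcf/Lef experiment, and the transcription factor sum there from 100.9 to 418.

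Markers of other lineages were summed in the same way. The 8 endothelial markers summed to between 1.31 and 44.8 RPM over all libraries, with at least 1 of the 8 (*Cdh5*, *Tie1*, *Tek*, *Kdr*, *Cldn5* or *Erg*) at 0 in 29 of 36 libraries, and the ureteric markers in the tables to between 0.526 and 7.31. The blood markers in the tables (*Ptprc*, *Hba-a1*, *Hba-a2*, *Alas2* and *Lyz2*) summed to between 9.14 and 61.1 in the wild-type table. In the Tcf/Lef table they summed to 153 in the GFP sgRNA control replicate 1 at high CHIR and to between 0.234 and 4.11 in the other 10 libraries. The 7 nephron progenitor markers (*Six2*, *Cited1*, *Eya1*, *Osr1*, *Meox1*, *Meox2* and *Tmem100*) summed to between 1428 and 1663 with no CHIR, 518 and 795 with low CHIR and 14.8 and 20.2 with high CHIR in wild-type NPCs. They summed to between 1012.5 and 1233 in the 3 GFP sgRNA controls of the Tcf/Lef experiment at low CHIR, the libraries among which the collagen sum ran from 13.2 to 510.5.

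The spread had a common pattern in the Tcf/Lef experiment. The replicate 1 library held the highest and the replicate 3 library the lowest value in all 4 groups for *Col1a1*, *Col1a2*, *Col3a1*, *Pdgfra* and *Pdgfrb*, a pattern that 2.99% of the 15878 tested genes showed. *Col3a1*, whose product is the chain of type III collagen, read 2473, 698 and 60.5 normalized counts in the GFP sgRNA controls at low CHIR (replicates 1 to 3), 3879 and 208 in QKO at low CHIR (replicates 1 and 3), 1079, 211 and 51.0 in the controls at high CHIR and 1737, 552 and 96.4 in QKO at high CHIR. Within a group the highest library exceeded the lowest by 10.9-fold to 40.9-fold for the collagen genes, 9.39-fold to 31.9-fold for *Pdgfra* and 5.13-fold to 9.22-fold for *Pdgfrb*. The within-group SD of the log2 values was 2.45 for *Col3a1*, 2.35 for *Col1a2*, 2.29 for *Col1a1*, 2.27 for *Pdgfra* and 1.54 for *Pdgfrb*, against a median of 0.289 over tested genes. It was 0.327 for *Tcf21*, 0.417 for *Meis1* and 0.263 for *Meis2*, below the values of the receptors and collagen genes. *Foxd1*, which was not tested here, spanned 4.24-fold to 8.62-fold within a group, with replicate 3 the lowest in 4 of 4 groups and replicate 1 the highest in 3 of 4.

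**Figure D2:**
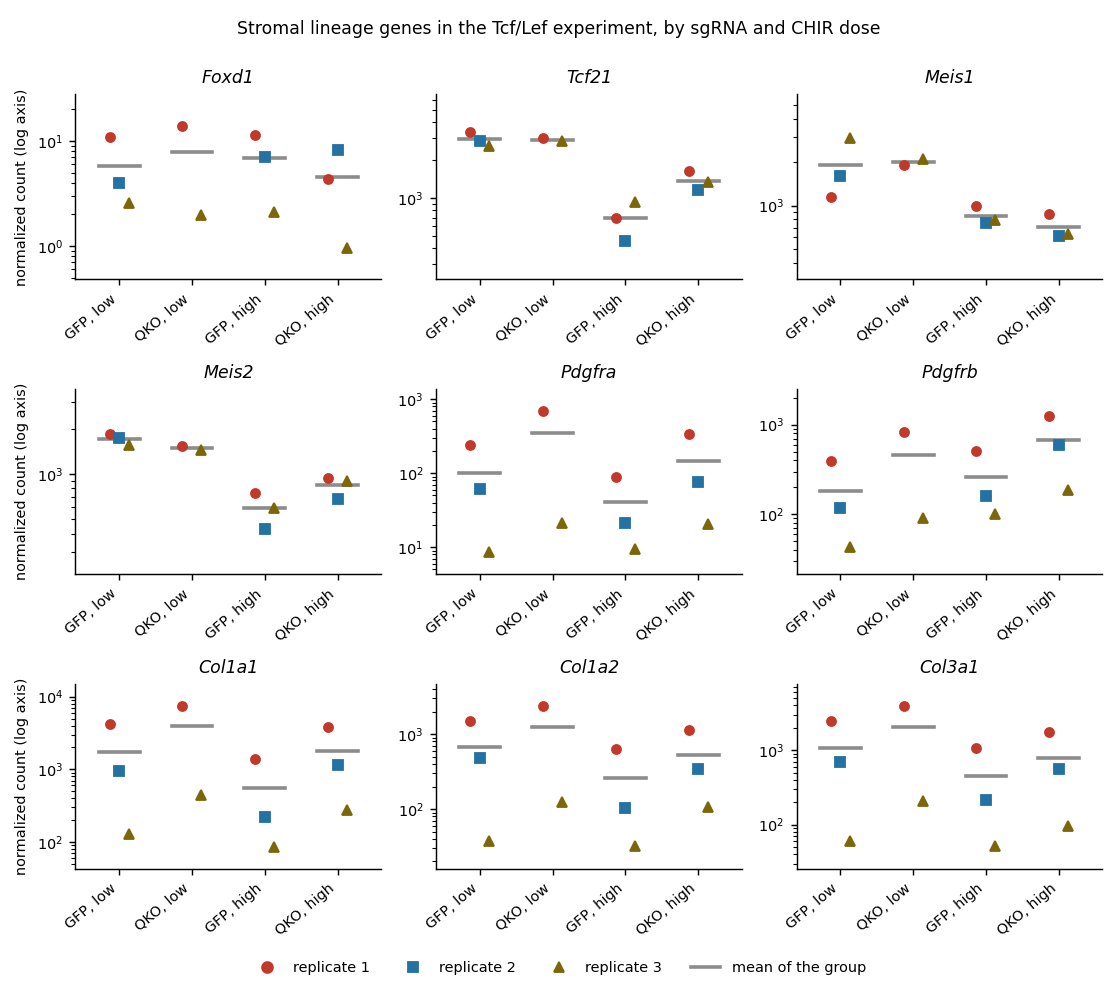
Normalized counts (log axis) of the 9 genes in the 11 libraries of the Tcf/Lef experiment, by sgRNA and CHIR dose, with 1 point per library marked by replicate number and a line at each group mean. Replicate 1 stands highest and replicate 3 lowest in all 4 groups for *Col1a1*, *Col1a2*, *Col3a1*, *Pdgfra* and *Pdgfrb*.

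The same genes moved together between libraries in the other experiments. Pearson's r between a gene's log2 deviations from its group means and the mean deviation of the collagen genes was 0.833, 0.989 and 0.984 for *Pdgfra* and 0.873, 0.935 and 0.983 for *Pdgfrb* in the wild-type (9 libraries), *Ctnnb1* (16) and Tcf/Lef (11) tables. For *Tcf21* r was 0.241, 0.618 and 0.166, for *Meis2* -0.132, 0.558 and 0.398 and for *Meis1* 0.672, 0.900 and -0.344. *Foxd1* had r of 0.649 and 0.737 in the tables in which it was tested. These are descriptions over points that share libraries and normalization within a table. In the Cas9-eGFP groups of the *Ctnnb1* experiment replicate 1 exceeded replicate 2 in 4 of 4 groups for each of the 9 genes, by 2.45-fold to 3.78-fold for *Col3a1* and 1.08-fold to 1.17-fold for *Meis2*. In the Cre groups replicate 1 was higher in 0 of 4 for *Foxd1*, *Pdgfra*, *Col1a1* and *Col3a1*. It was higher in 1 of 4 for *Pdgfrb*, *Meis1* and *Meis2*, in 2 of 4 for *Col1a2* and in 3 of 4 for *Tcf21*. The share of all tested genes with such an order was not counted. Over 11704 genes the 5 most like the collagen genes, by the mean r of the 3 tables, were *Bgn* (0.956), *Col5a2* (0.948), *Col6a3* (0.948), *Islr* (0.947) and *Ddr2* (0.936). Those most like *Foxd1* and *Pdgfra* were *Tmem204* (0.958), *Bgn* (0.947), *Anxa1* (0.933), *Pcdh9* (0.929) and *Ebf1* (0.928). *Bgn* encodes the matrix proteoglycan biglycan and *Ddr2* a collagen receptor, and *Bgn* was in both groups of 5.

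The effect of the CHIR dose was first examined in wild-type NPCs, where high CHIR induces differentiation and low CHIR supports expansion. *Tcf21* and *Foxd1* fell at high CHIR, and the other 7 genes had lower means but were not called. *Tcf21*, a basic helix-loop-helix factor of renal mesenchyme, read 7435, 8634 and 8499.7 normalized counts with low CHIR and 598, 442 and 63.6 with high CHIR. The groups did not overlap, and *Tcf21* was 31.7-fold lower (log2 fold change -4.99 ± 0.64 SE, adjusted p = 0.000891, limma). *Foxd1*, the forkhead factor of stromal progenitors, read 46.0, 26.6 and 32.3 with low and 11.2, 9.77 and 4.67 with high CHIR, 3.87-fold lower (-1.95 ± 0.47, adjusted p = 0.0258). Its call rests on single libraries, since the adjusted p was 0.0984 without low CHIR replicate 1 and 0.0868 without replicate 3. These were 2 of 9 genes called, both lower, against 10.4% of the 17411 genes tested (5.05% called lower), and the median log2 fold change of the 9 was -1.31 against 0.01 over all tested genes.

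Among the homeobox factors, *Meis1* read 1096, 1479 and 1297 with low and 909, 719 and 435 with high CHIR. The groups did not overlap, but *Meis1* was not called (-0.96 ± 0.28, adjusted p = 0.0536). *Meis2* read 1247, 1382 and 1362 with low CHIR and 366, 248 and 1696 with high CHIR (-1.31 ± 0.54, adjusted p = 0.167). The replicate 3 library at high CHIR thus held the lowest *Tcf21* value and the highest *Meis2* value of its group. Without that library *Meis2* was called lower (log2 fold change -2.14, adjusted p = 6.4e-05).

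The receptors and collagen genes had lower means at high CHIR with wide spread. *Pdgfra*, the receptor for PDGF-A and other PDGF chains, read 163, 275 and 119.8 with low and 108, 6.98 and 36.5 with high CHIR (-2.47 ± 0.82, adjusted p = 0.085), and *Pdgfrb*, the receptor typical of pericytes, 411, 455 and 307 against 477, 188 and 108 (-0.85 ± 0.51, adjusted p = 0.349). *Col3a1* read 3621, 4173 and 2244 with low CHIR and 1689.6, 558 and 469 with high CHIR, and the groups did not overlap (-2.08 ± 0.62, adjusted p = 0.0595). *Col1a1*, a chain of type I collagen, read 11025, 9302 and 6974 against 7979.6, 2293 and 4834 (-1.0 ± 0.53, adjusted p = 0.281), and *Col1a2*, its partner chain, 1871, 2093 and 1023 against 1846, 554 and 713 (-0.82 ± 0.57, adjusted p = 0.428). Replicate 1 was the highest of the 3 high CHIR libraries for both receptors and all 3 collagen genes. Without it *Pdgfra* (-3.35, adjusted p = 0.0187), *Meis1* (-1.20, adjusted p = 0.0285) and *Col3a1* (-2.66, adjusted p = 0.0232) passed both thresholds. In all, 5 of 9 genes had high CHIR libraries entirely below the low CHIR libraries. Among tested genes 30.8% had groups without overlap, 16% with high CHIR lower.

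**Figure D3:**
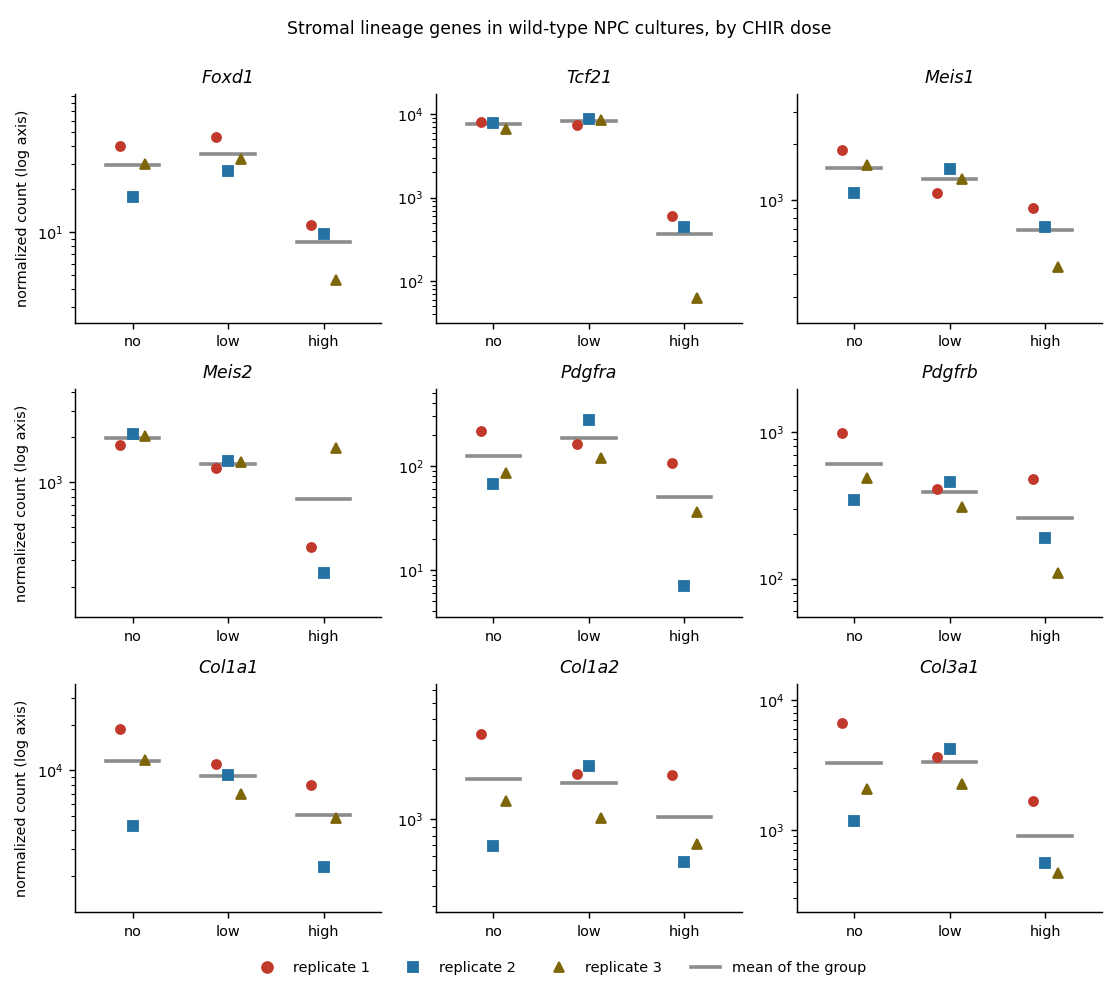
Normalized counts (log axis) of the 9 genes in wild-type NPCs with no, low or high CHIR, 1 point per library marked by replicate number (3 per dose) and a line at each group mean. *Tcf21* lies between 63.6 and 598 with high CHIR, below all libraries with no or low CHIR (6721 to 8634), while *Meis2* in replicate 3 at high CHIR (1696) exceeds every low CHIR library.

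Removal of CHIR left the 9 genes without a called difference. *Tcf21* read 7968, 7883 and 6721 with no CHIR, and the difference from low CHIR was -0.12 ± 0.64 (adjusted p = 0.94). *Foxd1* read 40.3, 17.6 and 30.2 with no CHIR (-0.29 ± 0.47, adjusted p = 0.781). *Meis2* at 1783, 2108 and 2039 was the only one of the 9 whose groups did not overlap (0.57 ± 0.54, adjusted p = 0.592), against 32.7% of tested genes. *Col1a1* spread from 4290.0 to 18643 among the 3 libraries with no CHIR and *Col3a1* from 1175 to 6656. In limma 0 of 9 were called, against 4.97% of tested genes, of which 3884 had an unadjusted p under 0.05.

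The dose effect recurred for *Tcf21* in the transfected controls of both other experiments. In NPCs without Cre, *Tcf21* read 4951 and 4151 at low and 1647 and 1701 at high CHIR, 2.71-fold lower (-1.44 ± 0.23, adjusted p = 0.00127, limma), and it was the only one of 9 genes called, against 8.05% of the 16780 genes tested (5.24% called lower). In the GFP sgRNA controls of the *Ctnnb1* experiment *Tcf21* read 6413 and 5614 at low and 4123 and 2431 at high CHIR, 1.89-fold lower (-0.92 ± 0.23, adjusted p = 0.0257). Here too it was the only one called without a replicate block, against 7.51% of tested genes (4.53% called lower). This second call was lost without low CHIR replicate 1 (adjusted p = 0.168), low CHIR replicate 2 (0.076) or high CHIR replicate 2 (0.307). *Pdgfra* read 217 and 543 against 103 and 145 in NPCs without Cre (-1.48 ± 0.73, adjusted p = 0.252), and 844 and 234 against 294 and 70.8 with the GFP sgRNA (-1.61 ± 0.73, adjusted p = 0.229). Besides *Tcf21*, *Pdgfra* did not overlap between doses without Cre, and 2 of 9 genes lower without overlap compare with 47.1% of tested genes (24.9% lower). With the GFP sgRNA 4 of 9 genes were lower without overlap (*Foxd1*, *Tcf21*, *Meis1* and *Meis2*), against 57.8% of tested genes (28.5% lower). *Pdgfrb* had higher means at high CHIR, with 238 and 679 against 701 and 603 without Cre (0.69 ± 0.59, adjusted p = 0.527) and 998 and 435 against 1795 and 519.8 with the GFP sgRNA (0.55 ± 0.59, adjusted p = 0.647). All these calls are from the fit without a replicate block. With the replicate number as a block, *Col1a1* and *Pdgfra* were called lower besides *Tcf21* without Cre. With the GFP sgRNA that fit called *Col1a1*, *Meis1* and *Pdgfra* lower besides *Tcf21*.

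In the GFP sgRNA controls of the Tcf/Lef experiment 3 genes fell at high CHIR. *Tcf21* read 3347, 2845 and 2609 at low and 699, 453 and 937 at high CHIR, 4.37-fold lower (-2.13 ± 0.23, adjusted p = 7.99e-05, limma). *Meis2*, a TALE homeobox factor, read 1835, 1738 and 1553 against 747, 431 and 596, 2.95-fold lower (-1.56 ± 0.19, adjusted p = 0.00024). Its relative *Meis1* read 1146, 1613 and 2966 against 995, 757 and 796, 2.09-fold lower (-1.06 ± 0.28, adjusted p = 0.024), a call lost without low CHIR replicate 2 (adjusted p = 0.0558) or high CHIR replicate 2 (0.0901) or 3 (0.0663). The groups of these 3 genes did not overlap, as was so for 29.2% of tested genes (15.1% lower), and 3 of 8 tested genes were called, all lower, against 14.9% (7.96% called lower). *Foxd1*, at 11.01, 3.95 and 2.59 against 11.5, 7.08 and 2.13, was below the mean of 10 and was not tested.

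In the Tcf/Lef experiment the replicate numbers were taken as pairs from the correlation of same-numbered libraries. The labels do not say what a number marks. Fits with the replicate number as a block are given beside the first ones. With the block, 7 of 8 genes were called for high against low CHIR in the controls, 6 of them lower, against 20.9% of tested genes (11.6% called lower). The collagen genes joined the 3 transcription factors in falling: *Col1a1*, at 4185, 955 and 128 against 1366, 220.5 and 85.1, had -1.44 ± 1.44 without the block (adjusted p = 0.569) and ± 0.25 with it (adjusted p = 0.00144). *Col3a1* (-1.05 ± 0.25, adjusted p = 0.00991) and *Col1a2* (-1.22 ± 0.34, adjusted p = 0.0233) were called with the block, and not without it (adjusted p = 0.715 and 0.651). *Pdgfrb* went the other way, at 389, 117 and 43.2 against 513, 162 and 99.9, and was higher at high CHIR in 3 of 3 pairs (0.68 ± 0.21, adjusted p = 0.0382, against 0.708 without the block), as were 31.6% of tested genes. The 6 genes called lower were lower in 3 of 3 pairs, as were 32.1% of tested genes. *Pdgfra*, at 237, 60.2 and 8.65 against 89.8, 21.2 and 9.57, was lower in 2 of 3 pairs and was not called (-0.91 ± 0.34, adjusted p = 0.0775). With 1 library left out of the blocked fit in turn, between 3 and 7 genes were called, the lowest count without low CHIR replicate 2. *Tcf21*, *Meis2* and *Col1a1* were among them each time. *Pdgfrb* was among them only without low CHIR replicate 1 or high CHIR replicate 2.

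The removal of *Ctnnb1* asks whether stromal genes depend on β-catenin in these cultures. At high CHIR, Cre left 0 of 9 genes called in limma without the block, against 8.65% of tested genes. Of the tested genes 3487 had an unadjusted p under 0.05. The blocked fit called 5 of the 9, *Col1a1*, *Col1a2*, *Pdgfra* and *Pdgfrb* higher and *Meis1* lower. *Pdgfrb* read 1494 and 1818 with Cre and 701 and 603 without (1.34 ± 0.59, adjusted p = 0.216), *Pdgfra* 245 and 525 against 103 and 145 (1.54 ± 0.73, adjusted p = 0.255) and *Col1a2* 2215 and 2034 against 623 and 879.8 (1.52 ± 0.63, adjusted p = 0.178). *Col1a1* read 3245 and 7164 against 1511 and 2724 (1.25 ± 0.58, adjusted p = 0.243), and *Col3a1* 1316 and 2091 against 1195 and 1299 (0.41 ± 0.70, adjusted p = 0.795). These 5 genes had groups that did not overlap, with Cre higher. Among tested genes 47.3% had no overlap, 24.2% with Cre higher. *Meis1*, at 795 and 883 against 1393 and 1287 (-0.68 ± 0.33, adjusted p = 0.271), and *Tcf21*, at 1541 and 1348 against 1647 and 1701 (-0.22 ± 0.23, adjusted p = 0.649), were lower without overlap, as were 23.1% of tested genes.

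With *Ctnnb1* sgRNA at high CHIR, 0 of 9 genes were called without the block either, against 5.09% of tested genes, of which 3263 had an unadjusted p under 0.05. The blocked fit called *Col1a1*, *Pdgfra* and *Pdgfrb*, all higher. *Pdgfrb* had the largest difference of the 9, at 3315 and 2639.7 against 1795 and 519.8 in the GFP sgRNA controls (1.61 ± 0.59, adjusted p = 0.146). *Col1a1* read 8288 and 6136 against 5681 and 1851 (1.14 ± 0.58, adjusted p = 0.308). These were the 2 of 9 genes whose groups did not overlap, both higher, while 61.3% of tested genes had no overlap and 30.1% were higher without it. *Pdgfra* read 413 and 178 against 294 and 70.8 (0.90 ± 0.73, adjusted p = 0.547) and *Tcf21* 3303 and 2597 against 4123 and 2431 (-0.11 ± 0.23, adjusted p = 0.835). The median log2 fold change of the 9 genes was 0.96 with Cre and 0.61 with the sgRNA, against medians of -0.02 and 0.00 over all tested genes.

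**Figure D4:**
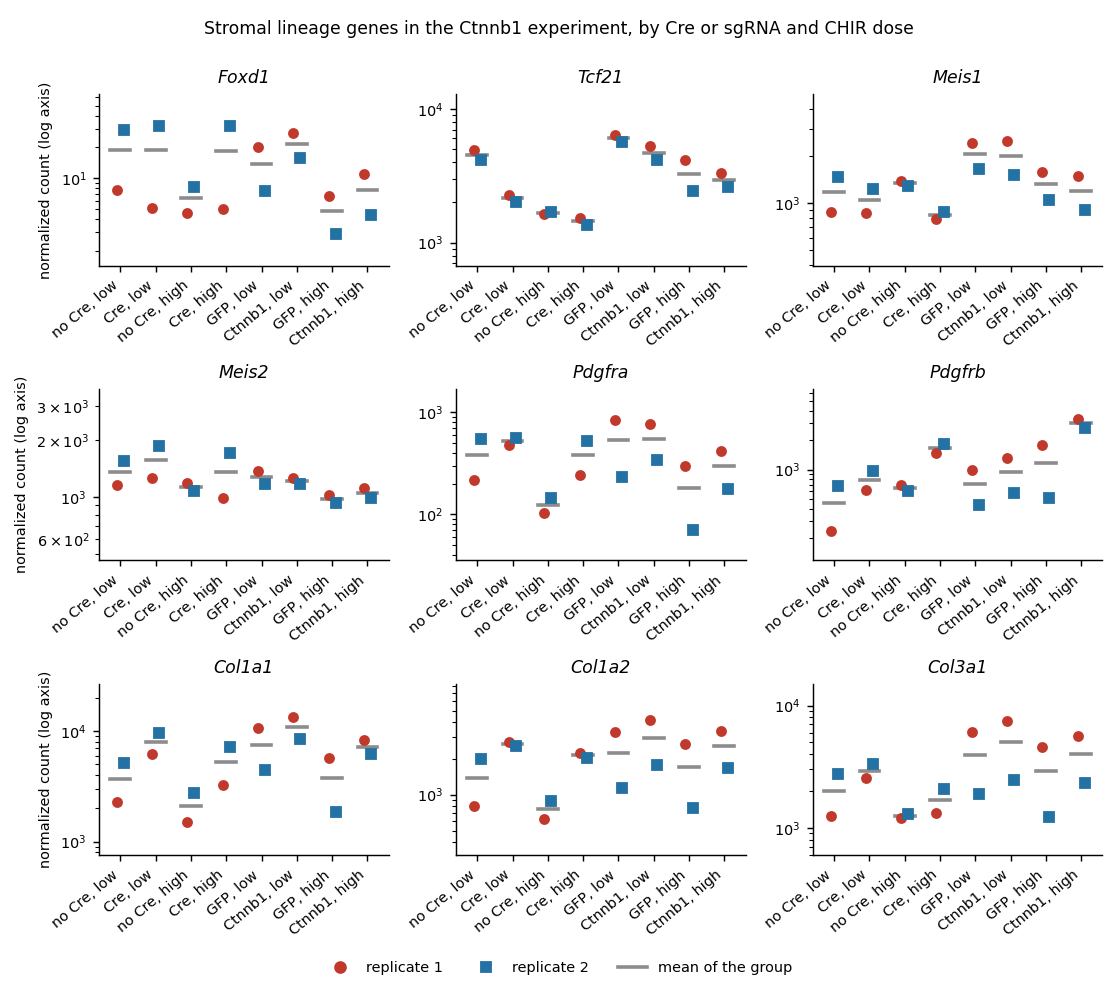
Normalized counts (log axis) of the 9 genes in the 16 libraries of the *Ctnnb1* experiment, by removal method and CHIR dose, with 1 point per library marked by replicate number (2 per group) and a line at each group mean. *Pdgfrb* at high CHIR lies between 1494 and 3315 in the 4 libraries with *Ctnnb1* removed and between 519.8 and 1795 in their 4 controls.

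At low CHIR no member was called in limma without the block after removal of *Ctnnb1* either. With Cre, 0 of 9 were called against 0.328% of tested genes, and 1795 genes had an unadjusted p under 0.05. *Tcf21* came nearest, at 2273 and 2007 with Cre against 4951 and 4151 without (-1.09 ± 0.23, adjusted p = 0.0759), with groups that did not overlap. *Col1a1* read 6154 and 9608 against 2282 and 5151 (1.17 ± 0.58, adjusted p = 0.504) and *Col1a2* 2722 and 2561 against 809.6 and 1966 (1.06 ± 0.63, adjusted p = 0.586), and these groups did not overlap either. The 3 genes without overlap compare with 34.3% of tested genes. These same 3 genes were called in the blocked fit, *Tcf21* lower and both collagen genes higher. With the *Ctnnb1* sgRNA, 0 of 9 were called against 0.0536% of tested genes, with 576 genes at an unadjusted p under 0.05. *Tcf21* at 5268 and 4139 against 6413 and 5614 was the only one of the 9 without overlap (-0.36 ± 0.23, adjusted p = 1), against 30.1% of tested genes. *Foxd1* stayed between 5.17 and 32.2 normalized counts in the 8 low CHIR libraries and between 2.87 and 31.6 in the 8 high CHIR libraries of this experiment.

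Whether the removal of *Ctnnb1* acted differently at the 2 doses was tested by the interaction of removal and CHIR. None of the 9 genes was called with Cre (adjusted p from 0.382 to 0.996, limma), against 0.995% of tested genes, with 1428 genes at an unadjusted p under 0.05. None was called with the sgRNA either (adjusted p from 0.851 to 0.995), against 0.518%, with 1159 at an unadjusted p under 0.05. The lowest of these adjusted p-values belonged to *Tcf21* with Cre, whose interaction was 0.87 ± 0.32. In the blocked fit *Tcf21* was called for this interaction.

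In QKO at high CHIR, *Tcf21* rose, and with the replicate block 6 other genes rose as well. *Tcf21* read 1632, 1152 and 1351 in QKO against 699, 453 and 937 in the GFP sgRNA controls. All QKO libraries lay above all controls, which held for 1 of 9 genes and, among tested genes, for 11.1% (19.9% without overlap in either direction), and *Tcf21* was 2.04-fold higher (1.03 ± 0.23, adjusted p = 0.0362, limma). It was 1 of 8 tested genes called, against 2.54% of tested genes (2.05% called higher), and the call was lost without any 1 of 5 of the 6 libraries (adjusted p from 0.0732 to 0.157). With the block *Tcf21* had an adjusted p of 0.00565, which was not under 0.05 without control replicate 2 or QKO replicate 2.

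*Col1a1* read 3877, 1154 and 275 in QKO against 1366, 220.5 and 85.1 in the controls. Each QKO library lay above the control of its own number, while the groups overlapped. *Col1a1* differed by 1.86 ± 1.44 without the block (adjusted p = 0.605) and by 1.86 ± 0.25 with it (adjusted p = 0.00107). *Pdgfrb*, at 1245, 595 and 189 against 513, 162 and 99.9, differed by 1.35 ± 0.98 without (adjusted p = 0.576) and by 1.35 ± 0.21 with the block (adjusted p = 0.00318). *Pdgfra*, at 342, 76.9 and 20.2 against 89.8, 21.2 and 9.57, differed by 1.58 ± 0.34 with the block (adjusted p = 0.0172, against 0.664 without). When 1 library was left out of the blocked fit, *Pdgfra* was called only without control replicate 3 or QKO replicate 3.

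The remaining collagen genes and *Meis2* were called with the block as well. *Col1a2* read 1146, 346 and 105 against 635, 103 and 31.9 (1.43 ± 0.34 with the block, adjusted p = 0.0273, against 0.716 without), and *Col3a1* 1737, 552 and 96.4 against 1079, 211 and 51.0 (0.99 ± 0.25, adjusted p = 0.0339, against 0.821 without). *Meis2* read 941, 676 and 902 against 747, 431 and 596 (0.53 ± 0.15, adjusted p = 0.0498, against 0.226 without). These 3 calls rest on single libraries. When 1 library was left out of the blocked fit, *Meis2* was never called and *Col3a1* only without control replicate 3. *Col1a2* was called only without control replicate 3 or QKO replicate 1. *Meis1* was lower in 3 of 3 pairs, at 873, 614 and 632 against 995, 757 and 796, as were 18% of tested genes, and was not called (-0.27 ± 0.27 with the block, adjusted p = 0.603). *Foxd1*, not tested, read 4.35, 8.31 and 0.964 against 11.5, 7.08 and 2.13.

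With the block 7 of 8 genes were called, all higher in QKO, against 7.44% of tested genes (5.3% called higher). Those 7 were higher in 3 of 3 pairs, as were 21.8% of tested genes. With 1 library left out of the blocked fit in turn, between 2 and 6 genes were called. *Col1a1* and *Pdgfrb* were called in each of the 6 cases, and they alone without control replicate 2 or QKO replicate 2. Control replicate 1, the library with the blood markers at 153 RPM, was one of the 6, and without it *Col1a1*, *Pdgfrb* and *Tcf21* were called. The median log2 fold change of the 8 genes was 1.19, against 0.00 over all tested genes.

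**Figure D5:**
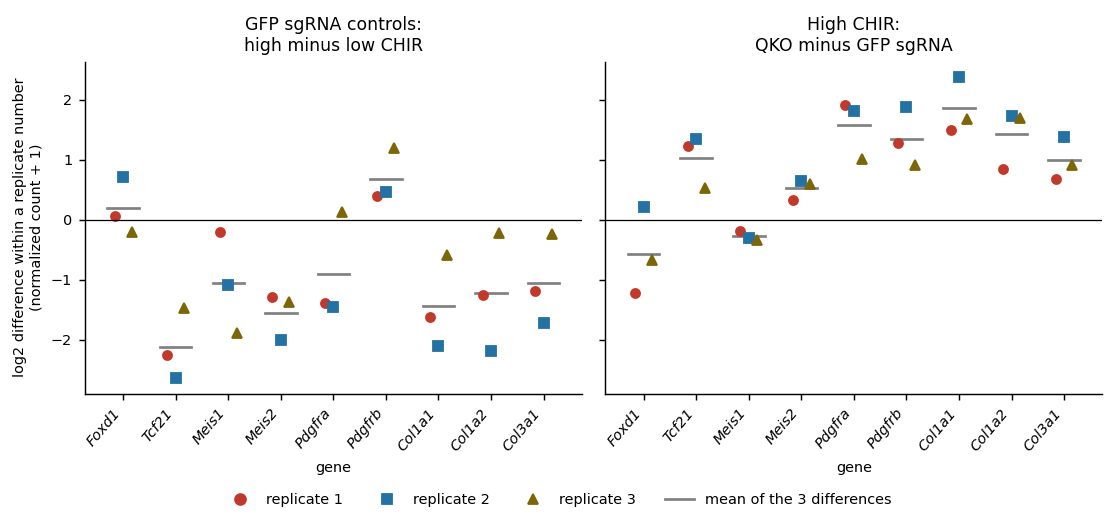
Differences in log2(normalized count + 1) between libraries of the same replicate number in the Tcf/Lef experiment, for high minus low CHIR in the GFP sgRNA controls (left) and QKO minus GFP sgRNA at high CHIR (right), with 1 point per pair and gene and a line at the mean of the 3 pairs. On the right, *Tcf21*, *Meis2*, both receptors and the collagen genes lie above 0 in 3 of 3 pairs, and *Meis1* lies below 0.

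At low CHIR no member was called in QKO, with 0 of 8 against 0.0063% of tested genes in limma, and with 706 genes at an unadjusted p under 0.05. With the block 0 of 8 were called against 0.101%. *Tcf21* read 3007 and 2845 against 3347, 2845 and 2609, a difference of 0.00 ± 0.25 (adjusted p = 0.998). *Col1a1* read 7525 and 437 in QKO replicates 1 and 3 and 4185, 955 and 128 in the controls, with a difference of 1.18 ± 1.61 (adjusted p = 0.92). In both pairs of the same number QKO was higher, by 0.85 and 1.76 on the log2 scale for *Col1a1* and by 0.65 and 1.77 for *Col3a1*. *Pdgfra* (685 and 21.5 against 237, 60.2 and 8.65) and *Pdgfrb* (838 and 90.9 against 389, 117 and 43.2) were likewise higher in 2 of 2 pairs, as were 24.6% of tested genes. *Meis2* read 1525 and 1444 against 1835, 1738 and 1553 (-0.20 ± 0.22, adjusted p = 0.909). It was the only one of the 9 whose groups did not overlap, against 16.4% of tested genes (6.25% lower), and was lower in 2 of 2 pairs, as were 17.3%. The interaction of QKO and CHIR was called for 0 of 8 genes (adjusted p from 0.563 to 1, against 0.126% of tested genes and 0.857% with the block, with 809 at an unadjusted p under 0.05). The interaction of *Tcf21* was 1.03 ± 0.34 (adjusted p = 0.563) and, with the block, 1.17 ± 0.27 (adjusted p = 0.0934).

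The ligands of the 2 receptors were read from a list of 4 PDGF genes. *Pdgfa*, which encodes the PDGF-A chain, rose with high CHIR in wild-type NPCs from 352, 214 and 199 to 1373, 1573 and 2309 normalized counts (2.79 ± 0.26, adjusted p = 0.00015, limma). It rose likewise in NPCs without Cre (2.48 ± 0.30, adjusted p = 0.000135), in the GFP sgRNA controls of the *Ctnnb1* experiment (2.66 ± 0.30, adjusted p = 9.32e-05) and in those of the Tcf/Lef experiment (2.34 ± 0.27, adjusted p = 0.00013). At high CHIR *Pdgfa* fell by 1.90 with Cre (SE 0.30, adjusted p = 0.00119) and by 1.73 with the *Ctnnb1* sgRNA (SE 0.30, adjusted p = 0.00435). *Pdgfc* fell with high CHIR in wild-type NPCs (-1.90 ± 0.32, adjusted p = 0.00382), in NPCs without Cre (-1.18 ± 0.24, adjusted p = 0.00684) and in the Tcf/Lef controls (-1.26 ± 0.38, adjusted p = 0.0437). *Pdgfd* rose with Cre at high CHIR (2.02 ± 0.58, adjusted p = 0.0477). In wild-type NPCs 1 of the 4 ligands rose and 1 fell at high CHIR, where 10.4% of tested genes were called.

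Among TALE homeobox genes whose products can partner Meis proteins, *Pknox2* fell with high CHIR in wild-type NPCs (-2.21 ± 0.37, adjusted p = 0.00393) and in both GFP sgRNA controls (-0.89 ± 0.20, adjusted p = 0.0147, and -2.16 ± 0.40, adjusted p = 0.00313). *Meis3* fell in the latter controls too (-1.21 ± 0.34, adjusted p = 0.0472, and -1.01 ± 0.29, adjusted p = 0.0349). *Pbx3* rose with high CHIR in the 3 transfected controls by 0.62 to 0.94 on the log2 scale, and at high CHIR it fell with Cre (-1.08 ± 0.17, adjusted p = 0.0012), with the *Ctnnb1* sgRNA (-0.79 ± 0.17, adjusted p = 0.0172) and in QKO (-0.96 ± 0.20, adjusted p = 0.0261). Among the 3 E-protein genes, whose products pair with *Tcf21*, *Tcf4* rose with high CHIR without Cre (0.92 ± 0.15, adjusted p = 0.00152) and with the GFP sgRNA (0.62 ± 0.15, adjusted p = 0.021). It fell at high CHIR with Cre (-0.92 ± 0.15, adjusted p = 0.00139) and with the *Ctnnb1* sgRNA (-0.64 ± 0.15, adjusted p = 0.0261).

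Of the other fibrillar and associated collagens (11 genes), *Col2a1*, which encodes type II collagen, fell with high CHIR in wild-type NPCs from 3047, 2111 and 2062 to 290.2, 276 and 429.9 normalized counts (-2.86 ± 0.26, adjusted p = 0.000124). It fell in NPCs without Cre as well (-1.46 ± 0.28, adjusted p = 0.00454). *Col2a1* rose with Cre at low CHIR (1.82 ± 0.28, adjusted p = 0.0108) and at high CHIR (2.69 ± 0.28, adjusted p = 3.96e-05), and with the *Ctnnb1* sgRNA at high CHIR (1.81 ± 0.28, adjusted p = 0.0019). In wild-type NPCs 0 of 11 rose and 1 fell at high CHIR, a share near that of all tested genes (10.4% called, 5.05% lower). With Cre at high CHIR, where 8.65% of tested genes were called, 2 of 11 rose, *Col2a1* and *Col11a1* (1.24 ± 0.35, adjusted p = 0.0411), and 0 fell.

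Genes for the processing and crosslinking of collagen (23 genes, 22 tested in the *Ctnnb1* table) were examined after removal of *Ctnnb1* at high CHIR, where 10 of 22 rose and 1 fell with Cre. Of the 16780 tested genes 990 rose and 462 fell there (8.65% called). P4ha3, a subunit of prolyl 4-hydroxylase, read 1070 and 1466 with Cre and 34.1 and 53.9 without (4.84 ± 0.36, adjusted p = 2.59e-06), and the crosslinking enzyme *Lox* rose too (5.68 ± 1.04, adjusted p = 0.00333). With the *Ctnnb1* sgRNA at high CHIR 5 of 22 rose and 0 fell, against 578 and 276 of all tested genes (5.09% called), with P4ha3 at 3.59 ± 0.36 (adjusted p = 6.04e-05) and the matrix protein gene *Sparc* at 1.01 ± 0.22 (adjusted p = 0.0181). The interaction of removal and CHIR was called for P4ha3 with Cre (4.02 ± 0.52, adjusted p = 0.00135) and with the sgRNA (2.95 ± 0.52, adjusted p = 0.0185). In QKO at high CHIR, where 2.54% of tested genes were called, 2 of 21 rose, *Pcolce* (1.91 ± 0.44, adjusted p = 0.0421) and *Sparc* (0.68 ± 0.15, adjusted p = 0.0388), and 1 fell, *Loxl2* (-1.39 ± 0.25, adjusted p = 0.0123).

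A list of 14 other stromal progenitor and fibroblast markers was set beside the 9 genes. In wild-type NPCs at high CHIR, where 5.05% of tested genes were called lower, 0 of 12 tested rose and 3 fell: *Fibin* (-5.25 ± 0.62, adjusted p = 0.000573), *Mfap4* (-3.51 ± 0.34, adjusted p = 0.000167) and *Ogn* (-2.82 ± 0.53, adjusted p = 0.0074), with a median of -1.59 over the 12. *Mfap4*, which encodes a microfibril protein, fell at high CHIR in the 3 transfected controls as well, by 2.10 to 3.07 on the log2 scale. *Aldh1a2*, which encodes an enzyme of retinoic acid synthesis and is active in cortical stroma, went the other way from *Mfap4* in these controls. So did *Smoc2* of the same list in the Tcf/Lef controls. *Aldh1a2* read 1205 and 1655 at low and 11530 and 9234 at high CHIR without Cre (2.87 ± 0.32, adjusted p = 7.05e-05). It rose likewise in the GFP sgRNA controls of the *Ctnnb1* (2.31 ± 0.32, adjusted p = 0.000508) and Tcf/Lef experiments (2.69 ± 0.25, adjusted p = 2.51e-05). At high CHIR *Aldh1a2* fell with Cre (-2.46 ± 0.32, adjusted p = 0.000271), with the *Ctnnb1* sgRNA (-1.44 ± 0.32, adjusted p = 0.0206) and in QKO (-1.57 ± 0.25, adjusted p = 0.00571).

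Nephron progenitor markers changed in the same comparisons. All 7 fell at high CHIR in wild-type NPCs, in NPCs without Cre and in the Tcf/Lef controls, where 5.05%, 5.24% and 7.96% of tested genes were called lower. In the GFP sgRNA controls of the *Ctnnb1* experiment 5 of 7 fell, against 4.53% called lower. At high CHIR, 6 of 7 rose with Cre (8.65% of tested genes called in either direction), 5 with the *Ctnnb1* sgRNA (5.09%) and 6 in QKO (2.54%). *Six2*, the transcription factor that marks self-renewing NPCs, changed by -5.40 ± 0.15 (SE) on the log2 scale in wild-type NPCs (adjusted p = 3.18e-08). The fall of *Tcf21* with high CHIR and its rise in QKO had the direction of these markers. After removal of *Ctnnb1* at high CHIR, where most of the 7 rose, *Tcf21* differed by -0.22 with Cre and -0.11 with the sgRNA on the log2 scale and was not called. The part of these markers in the stromal differences was not tested.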

How the data were processed

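The authors aligned RNA-seq reads of the 36 libraries to GRCm38 and counted reads per Ensembl gene (STAR, featureCounts and DESeq2 in the submitters' processing notes). The signal they deposited is a normalized count, made by dividing reads by 1 size factor per library, in 3 tables of genes with at least 10 reads in total. Their 8 comparison tables hold fold changes and p-values and were not used. In all, 50 columns of the files without a sample were not used.

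Whole reads were recovered from the step between low values (100.0% whole within 0.1). Count tests left out 3 libraries whose size factor lay too near 1 for the step to be told from whole numbers. The main fit used limma 3.58.1 under R 4.3.3. It took log2 of the normalized count plus 1 for each library in a table, kept genes averaging 10 or more, and let the variance follow a trend. Interactions came from the same fit. edgeR 4.0.16 and DESeq2 1.42.0 ran on recovered reads as alternatives, besides another pseudocount, filter, threshold and scaling, only the compared groups, the replicate block and each library left out. The steps were tested on simulated data. Places and exon lengths come from GENCODE vM21, and promoter sequences from RefSeq.

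The correlation across genes (the 9 left out) of same-numbered libraries' deviations from their group means was 0.365, 0.249 and 0.361 for QKO and control at high CHIR and 0.527, 0.342 and 0.628 for the controls at low and high CHIR. The numbers were therefore taken as pairs in the Tcf/Lef table. In the wild-type table the correlation was 0.147, 0.0398 and 0.0945 for low and high CHIR. It was 0.271, 0.246 and 0.0716 for no and high CHIR and 0.0239, -0.0151 and 0.177 for no and low CHIR. In each of these comparisons at least 1 number stayed below 0.1, and the replicates were treated as unpaired. The *Ctnnb1* table has 2 numbers per group and so fewer than the 3 pairs required here, and its blocked fit was kept as an alternative.

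The 9 genes and all lists were chosen with earlier results of these data known. The 9 are named in every comparison. From other lists, called genes are named, at most 4 per list and comparison by the size of the log2 fold change, and the targeted genes are given as a check. Genes alike in library-to-library variation are the 5 with the highest mean r among genes averaging 50 or more in each table. The result of 1 gene of the lists is not reported here.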

Additional observations from a re-analysis of the deposited data

How the results depend on the processing

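In wild-type NPCs 2 of the 9 genes were called for high against low CHIR, and 1 to 5 with 1 library left out. Low CHIR replicate 1 or 3 decided the call of *Foxd1*, high CHIR replicate 1 those of *Pdgfra*, *Meis1* and *Col3a1*, and high CHIR replicate 3 that of *Meis2*. *Col3a1* was also called with the replicate block (adjusted p = 0.0143) or with only the compared groups in the fit, and *Meis1* with DESeq2 (adjusted p = 0.017), so that each of these settings called 3. For no against low CHIR, 0 became 1 with only the compared groups in the fit. In the *Ctnnb1* table the labels do not say what a shared replicate number stands for. Same-numbered libraries correlated at 0.195 to 0.490 in their deviations from the group means, positive in each of the 6 comparisons of 2 groups. The fit with the replicate block called 3 in place of 0 for Cre at low CHIR (*Col1a1* and *Col1a2* higher, *Tcf21* lower), 5 in place of 0 for Cre at high CHIR (*Col1a1*, *Col1a2*, *Pdgfra* and *Pdgfrb* higher, *Meis1* lower) and 3 in place of 0 for *Ctnnb1* sgRNA at high CHIR (*Col1a1*, *Pdgfra* and *Pdgfrb*, all higher). It called 3 in place of 1 for CHIR without Cre (*Col1a1*, *Pdgfra* and *Tcf21*, all lower), 4 in place of 1 for CHIR with the GFP sgRNA (*Col1a1*, *Meis1*, *Pdgfra* and *Tcf21*, all lower), and 1 in place of 0 for the interaction with Cre (*Tcf21*). Only the compared groups in the fit gave 2 for Cre at high CHIR, and DESeq2 gave 1 for Cre at low CHIR. For CHIR with the GFP sgRNA the 1 call (*Tcf21*) became 0 with only the compared groups, a threshold of 1, edgeR or DESeq2, and 0 to 1 with 1 library left out.

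In the Tcf/Lef table the block called 7 in place of 1 for QKO at high CHIR and 7 in place of 3 for CHIR in the controls, where edgeR gave 2. For QKO at high CHIR edgeR and only the compared groups gave 0, and leaving out 1 library gave 0 to 1. With the block and 1 library left out, an alternative added after the data were seen, the counts were 2 to 6 for QKO, 3 to 7 for CHIR and 0 to 1 for their interaction. Over all genes the block called 1181 in place of 404 for QKO at high CHIR. The block changed no other count of called genes among the 9 in that table. Of 3626 recomputed values of single genes under 10 kinds of setting, 0 called values changed sign and 151 uncalled values did. The cause of these changes was not tested. *Foxd1*, at 0.964 to 13.9 normalized counts in the Tcf/Lef table, is limited by depth.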

Other observations

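Mural cell markers, a list of 10 genes of pericytes and smooth muscle that share the receptor *Pdgfrb* with stroma, were described above only by their sum. Only called genes are named here, at most 4 per comparison, so they do not stand for the whole list. *Des*, which encodes desmin, read 8862, 11269 and 15427 normalized counts in wild-type NPCs with low CHIR and 529, 412 and 329 with high CHIR (-4.79 ± 0.24, adjusted p = 2.63e-06, limma), and *Rgs5*, a pericyte marker, fell too (-3.12 ± 0.65, adjusted p = 0.0123). *Des* also fell with high CHIR without Cre (-1.49 ± 0.28, adjusted p = 0.00446), with the GFP sgRNA in the *Ctnnb1* experiment (-1.51 ± 0.28, adjusted p = 0.00479) and in the Tcf/Lef experiment (-2.89 ± 0.36, adjusted p = 0.000235). At high CHIR *Cspg4*, which encodes the pericyte proteoglycan NG2, rose with Cre (1.89 ± 0.37, adjusted p = 0.00533) and with the *Ctnnb1* sgRNA (1.78 ± 0.37, adjusted p = 0.0144), and *Des* rose with both (1.35 ± 0.28, adjusted p = 0.00846, and 1.18 ± 0.28, adjusted p = 0.0309). With no CHIR, *Tagln* (3.42 ± 0.54, adjusted p = 0.00965) and *Acta2* (2.15 ± 0.53, adjusted p = 0.0465), both of smooth muscle, were higher than with low CHIR. In each table Pearson's r of the tested mural markers with the mean deviation of the 3 collagen genes had a median of 0.521 (wild type), 0.730 (*Ctnnb1*) and 0.846 (Tcf/Lef). Single markers ranged from -0.106 to 0.725 (9 tested), -0.672 to 0.942 (8 tested) and -0.196 to 0.988 (7 tested) in these tables.

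*Penk*, a marker of medullary stroma, fell with high CHIR without Cre (-3.62 ± 0.91, adjusted p = 0.0253). With the replicate block in the Tcf/Lef experiment, *Penk* (2.16 on the log2 scale), *Fbln5* (1.80) and *Fibin* (1.55) were higher in QKO at high CHIR, while *Aldh1a2* was lower (-1.57). In that fit 7.44% of tested genes were called, 5.3% of them all as higher. Only called genes are named, at most 4, so they do not stand for their list. *Smoc2* rose with high CHIR in the Tcf/Lef controls (6.52 ± 0.91, adjusted p = 0.0005).

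The GFP sgRNA control replicate 1 at high CHIR of the Tcf/Lef experiment held 2474 normalized counts of *Lyz2*, a lysozyme gene of myeloid cells, and 67.6 of *Ptprc*. The same library held 1366 normalized counts of *Col1a1*, the highest of its group. Replicate 1 was the highest for *Col1a1* in all 4 groups of that experiment, and the blood markers summed to at most 4.11 RPM in its other libraries. A link between the 2 was not tested.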
